A study of Mus musculus with 5 samples.

Results

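These are the H2AK119ub peaks of wild-type mouse embryonic stem cells that had no RYBP peak over them and were found again in cells without DDX5. The peaks were chosen by the measured positions of peaks in all 3 lists, as wild-type H2AK119ub peaks narrower than 5000 bp, on autosomes other than 6 and 8, that shared at least 1 bp with an H2AK119ub peak of the knockout and none with a RYBP peak of the wild type. The rule took 6132 of 24235 wild-type peaks, 25.3% (95% Wilson interval 24.8% to 25.9%). They are called RYBP-free kept peaks below. Counts of kept peaks, distances to RYBP and widths of the knockout counterparts rest on positions used by this choice, and are therefore given as descriptions. RYBP-free means that no RYBP peak was called there, since a list of called peaks does not show binding below the caller's threshold.

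The study compared wild-type MPI-II cells, a mouse embryonic stem cell line, with a DDX5-/- line derived from them, using chromatin immunoprecipitation and sequencing (ChIP-seq). The knockout line is a single clone, obtained by cutting the second exon of Ddx5 with paired guides and a Cas9 nickase. Ddx5 is a gene for a DEAD-box RNA helicase. All cells were grown on feeder cells in serum with LIF, the MEK inhibitor PD0325901 and the GSK3 inhibitor CH99021. H2AK119ub was profiled in both genotypes and RYBP in the wild type with an antibody sold under the alias DEDAF, with 1 library each. No difference between the groups therefore has a replicate check, no p-value is given, and clonal and culture differences cannot be told apart from the genotype. The lists held 24235, 20994 and 9564 peaks for wild-type H2AK119ub, knockout H2AK119ub and wild-type RYBP. They gave positions only, so the depth of each library is unknown, the intervals cover counting error only, and a less enriched knockout library cannot be told apart from less of the mark. Coordinates are those of mm10, counted from 1.

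H2AK119ub is a single ubiquitin placed on a lysine of histone H2A by Polycomb repressive complex 1 through its catalytic subunits RING1 and RNF2. RYBP and its paralog YAF2 belong to the variant forms of the complex, which carry out most of the ubiquitination in embryonic stem cells and gather at unmethylated CpG islands, while the canonical forms carry CBX proteins in their place. The mark is densest over the CpG island promoters of silent developmental genes, and it also lies as a thin blanket over genes and the space between them. RYBP itself binds the mark.

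Promoter sequences under RYBP-free kept peaks are printed to show their range of CpG content. The RefSeq promoter table (GRCm38.p6) gives for each gene start a window of 300 bases, 250 before and 50 after the start. Of its 28089 windows on 16 of the 17 chromosomes in the rule, 479 windows of 417 genes overlapped a RYBP-free kept peak. The sequences below are the 250 bases before the start for protein-coding genes whose window lay wholly inside such a peak and whose upstream bases lay outside every annotated gene, a set of 55 windows. They are the pairs with the lowest, the middle and the highest CpG content, and the last line is the window in the middle of the matching 118 windows under kept peaks with RYBP. Each is written 5′ to 3′ on the strand of its gene, with every CpG in capitals.
Actl11, chr9:107928219-107928468, plus strand: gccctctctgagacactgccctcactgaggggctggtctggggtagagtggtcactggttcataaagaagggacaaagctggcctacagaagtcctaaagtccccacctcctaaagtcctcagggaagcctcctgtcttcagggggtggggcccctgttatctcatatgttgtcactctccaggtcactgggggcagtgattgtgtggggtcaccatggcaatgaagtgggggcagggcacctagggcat
Lcn10, chr2:25682476-25682725, plus strand: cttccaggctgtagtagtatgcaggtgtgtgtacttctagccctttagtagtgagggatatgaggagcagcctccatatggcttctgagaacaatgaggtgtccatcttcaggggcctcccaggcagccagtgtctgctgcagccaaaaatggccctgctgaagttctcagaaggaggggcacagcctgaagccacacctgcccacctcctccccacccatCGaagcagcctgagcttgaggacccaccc
Ccdc185, chr1:182749181-182749430, minus strand: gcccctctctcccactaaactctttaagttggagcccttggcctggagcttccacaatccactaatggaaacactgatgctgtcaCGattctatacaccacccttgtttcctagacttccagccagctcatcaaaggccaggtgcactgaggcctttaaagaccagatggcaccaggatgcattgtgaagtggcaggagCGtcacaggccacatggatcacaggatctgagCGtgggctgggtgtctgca
Runx3, chr4:135120395-135120644, plus strand: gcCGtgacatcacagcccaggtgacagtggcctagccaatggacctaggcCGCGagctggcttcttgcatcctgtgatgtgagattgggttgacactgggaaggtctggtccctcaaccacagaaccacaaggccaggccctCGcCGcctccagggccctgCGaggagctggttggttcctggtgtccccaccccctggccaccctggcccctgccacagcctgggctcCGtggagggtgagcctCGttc
Otp, chr13:94875386-94875635, plus strand: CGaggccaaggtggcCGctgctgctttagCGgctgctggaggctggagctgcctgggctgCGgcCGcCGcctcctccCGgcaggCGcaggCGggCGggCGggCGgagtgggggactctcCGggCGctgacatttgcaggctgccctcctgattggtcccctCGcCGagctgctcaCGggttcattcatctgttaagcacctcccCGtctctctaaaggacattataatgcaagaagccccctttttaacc
Col8a2, chr4:126286544-126286793, plus strand: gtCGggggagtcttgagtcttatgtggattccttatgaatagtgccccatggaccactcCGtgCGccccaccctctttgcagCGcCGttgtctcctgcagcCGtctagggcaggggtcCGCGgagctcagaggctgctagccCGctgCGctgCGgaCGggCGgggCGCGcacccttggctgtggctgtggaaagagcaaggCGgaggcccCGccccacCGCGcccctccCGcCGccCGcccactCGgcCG
Mxra7, chr11:116828128-116828377, minus strand: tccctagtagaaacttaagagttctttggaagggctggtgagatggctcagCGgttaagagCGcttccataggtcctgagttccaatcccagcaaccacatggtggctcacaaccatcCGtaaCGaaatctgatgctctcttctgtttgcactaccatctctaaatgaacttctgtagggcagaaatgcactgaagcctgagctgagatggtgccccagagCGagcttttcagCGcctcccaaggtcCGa

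The printed stretch of Actl11, a gene for an actin-like protein of the testis, holds 0 CpG and that of Lcn10, a lipocalin gene of the epididymis, holds 1. Those of Ccdc185 and Runx3 hold 3 and 8, where Runx3 encodes a transcription factor of T cells and sensory neurons. Otp, a homeobox gene of the hypothalamus, has 18 and Col8a2, a collagen gene of the cornea, has 24. The RYBP-bound example Mxra7 has 7, fewer than 3 of the RYBP-free examples, so the printed stretches show the range and not the difference between the sets. The examples were ranked by another measure, observed over expected CpG of the 300-base window, explained below. By it Mxra7 had 0.610, above Runx3 with 0.264 and below Otp with 0.775 and Col8a2 with 0.832. The wild-type peak over the Actl11 window (chr9:107927540-107929034) was 1495 bp wide and 80.3% of it was covered by knockout peaks, and that over Lcn10 (chr2:25681852-25684977) was 3126 bp wide and 48.6% covered. The peak at Ccdc185 (chr1:182748133-182749935) was 1803 bp wide and 95.5% covered, and that at Runx3 (chr4:135120191-135123378) 3188 bp wide and 29.9% covered. The peak at Otp (chr13:94871452-94875741) was 4290 bp wide and 15.8% covered and ended 471 bp from a RYBP peak. That at Col8a2 (chr4:126285692-126289222) was 3531 bp wide and 75.1% covered, with the nearest RYBP peak 11570 bp away. The peak at Mxra7 (chr11:116826161-116828796) was 2636 bp wide, with 1598 bp of RYBP and 37.1% covered by the knockout.

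Promoters under RYBP-free kept peaks held less CpG than those under kept peaks with RYBP. Promoters of chromosome 18 were not analysed here. Their observed over expected CpG, the number of CpG divided by the number that the C and G content alone would give, had a median of 0.342 (95% interval of the median 0.303 to 0.385, quartiles 0.209 and 0.558, n = 479 windows). Under kept peaks with RYBP the median was 0.701 (0.683 to 0.718, n = 975), and over all windows of the same chromosomes it was 0.391 (0.384 to 0.398, n = 28089). The windows under RYBP-free peaks found in the wild type alone had a median of 0.300 (0.271 to 0.330, n = 437), so that both RYBP-free sets lay below the set with RYBP and their intervals overlapped each other. The median GC content was 57.7% under RYBP-free kept peaks, 64.0% under kept peaks with RYBP and 53.0% over all windows.

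Counted as windows with at least 50% GC and a ratio of at least 0.6, a common definition of CpG island sequence, 93 of 479 under RYBP-free kept peaks were island-like, 19.4% (16.1% to 23.2%), against 599 of 975 under kept peaks with RYBP, 61.4% (58.3% to 64.4%). The difference was -42.0 percentage points (Newcombe interval -46.5 to -37.1). Against RYBP-free peaks of the wild type alone the difference was 4.54 points, and its interval (-0.369 to 9.39) includes no difference. Over all windows 34.3% were island-like. Among windows of protein-coding genes the median ratio was 0.385 under RYBP-free kept peaks (n = 279), 0.729 under kept peaks with RYBP (n = 779) and 0.587 over all (n = 18050).

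**Figure D1:**
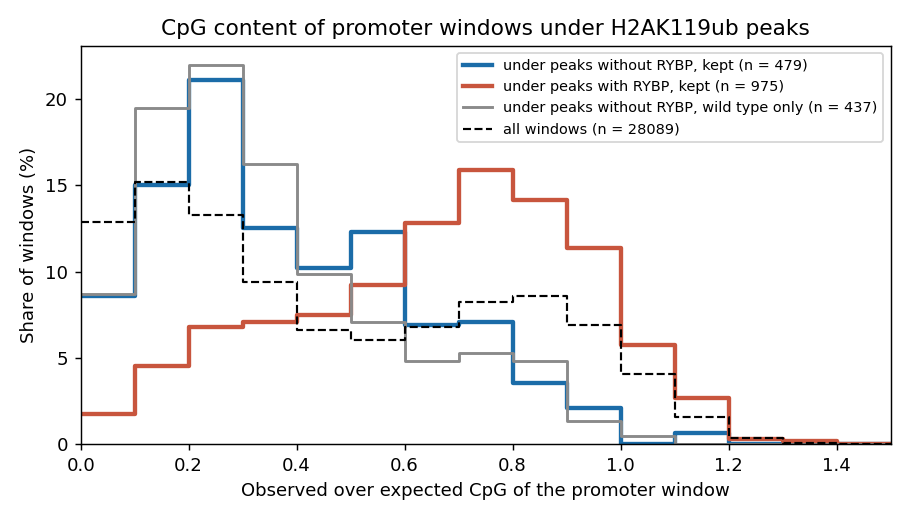
Share of promoter windows (vertical axis, %) by observed over expected CpG (horizontal axis, in steps of 0.1) under RYBP-free kept peaks, kept peaks with RYBP, RYBP-free peaks of the wild type alone and over all windows. The RYBP-free sets peak between 0.2 and 0.3 and the set with RYBP between 0.7 and 0.8.

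Short motifs were counted in the same windows on both strands. CACGTG, the E-box bound by MAX and MGA, which belong to a variant Polycomb complex, was in 24 of 479 windows under RYBP-free kept peaks, 5.01% (3.39% to 7.35%), in 10.8% (8.98% to 12.9%) under kept peaks with RYBP, in 7.78% (5.62% to 10.7%) under RYBP-free peaks of the wild type alone and in 7.26% of all windows. GAGAGAG, a purine repeat that overlaps itself when it runs on, was in 13.8% (10.98% to 17.2%) under RYBP-free kept peaks, 10.6% (8.79% to 12.7%) with RYBP, 13.0% in the wild type alone and 10.1% of all windows. GCGGGAA, the core of E2F sites, was in 5.22% (3.56% to 7.59%), in 8.31% (6.73% to 10.2%) under kept peaks with RYBP, in 2.06% (1.09% to 3.87%) under RYBP-free peaks of the wild type alone and in 4.64% of all windows. AGATGGC, the core of YY1 sites, was in 5.85% under RYBP-free kept peaks, 4.41% with RYBP, 5.49% in the wild type alone and 6.43% of all windows. CAGCACC, part of the REST site, was in 8.56%, 8.10%, 6.64% and 7.19% in the same order. CACGTG and GCGGGAA hold a CpG, and both were most frequent under kept peaks with RYBP. Across all the sets neither followed the order of the median CpG given above. The part of CpG content in these counts was not tested.

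With gene ends taken as windows of 2 kb, most RYBP-free kept peaks lay in gene bodies. Of the 6132 peak centres, 3213 were inside a gene and over 2 kb from any gene end, 52.4% (51.1% to 53.6%). A further 1645 lay at gene ends, within 2 kb, 26.8% (25.7% to 27.9%), and 1274 were between genes, 20.8% (19.8% to 21.8%). The same classes held 41.8%, 11.5% and 46.7% of the base pairs of these chromosomes, so gene ends carried 2.33 times and gene bodies 1.25 times their share of sequence, and the space between genes 0.445 times. Kept peaks with RYBP had another placement, with 66.2% (64.4% to 67.9%) at gene ends, 28.1% inside genes and 5.75% between genes. The share at gene ends differed by -39.3 points (RYBP-free minus with RYBP, interval -41.4 to -37.2). RYBP-free peaks of the wild type alone had 24.9%, 49.6% and 25.5% in the same order, and the kept set differed from them by 1.91 points at gene ends (0.51 to 3.32), 2.83 inside genes (1.23 to 4.42) and -4.74 between genes (-6.07 to -3.39). Within 4 classes of width the gene-end share of RYBP-free kept peaks was 23.8% to 28.3% and that of kept peaks with RYBP 58.3% to 72.3%. The gene-end share depends on the window: it was 14.0% with 1 kb and 48.7% with 5 kb, where 35.9% lay inside genes and gene ends were the larger class. It was 17.3% with ends of protein-coding genes alone, which left 31.3% between genes.

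**Figure D2:**
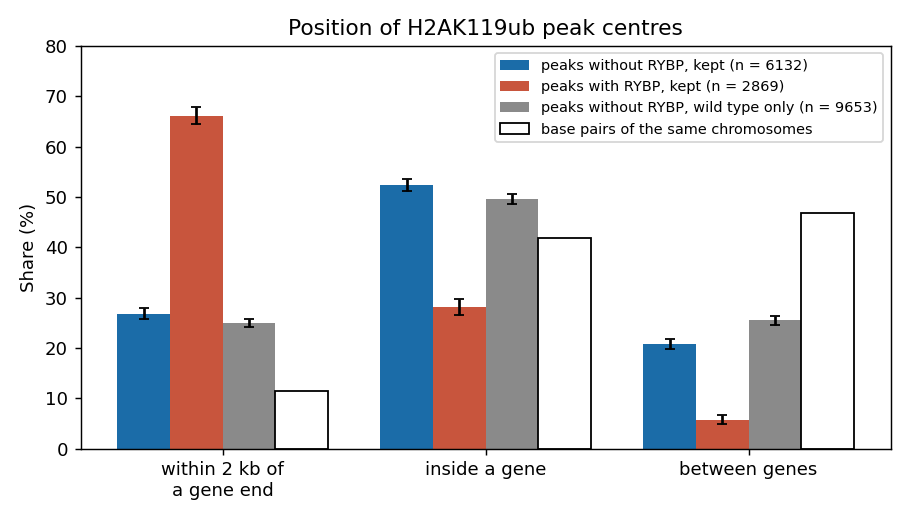
Share of peak centres (vertical axis, %) at gene ends (within 2 kb), in gene bodies and between genes for 3 sets of wild-type H2AK119ub peaks, with 95% Wilson intervals, and the share of base pairs in each class as open bars. The RYBP-free kept peaks have 26.8% at gene ends where the kept peaks with RYBP have 66.2%.

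Along a gene, RYBP-free kept peaks were spread from start to far end. In protein-coding genes of at least 20 kb with a known strand, 13.5% (12.2% to 15.0%) of 2179 such peaks lay in the first 10% of the gene's length, 14.3% (12.9% to 15.8%) in the last 10%, and 7.62% to 11.7% in each 10% between. Of 921 kept peaks with RYBP, 60.0% (56.8% to 63.2%) lay in the first 10% and 7.38% in the last. At the ends themselves, over genes of at least 8 kb, 309 of 5966 RYBP-free kept peaks were centred within 2 kb of the start, 5.18% (4.65% to 5.77%), and 265 within 2 kb of the far end, 4.44% (3.95% to 4.99%). Kept peaks with RYBP had 31.2% (29.5% to 32.9%) at the start and 3.70% (3.06% to 4.46%) at the far end. RYBP-free peaks of the wild type alone leaned to the far end, with 4.26% (3.87% to 4.68%) at the start and 5.30% (4.86% to 5.77%) at the far end. The intervals for the start, 4.65% to 5.77% for kept peaks and 3.87% to 4.68% for those of the wild type alone, overlap at their edges, and that difference was not tested.

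**Figure D3:**
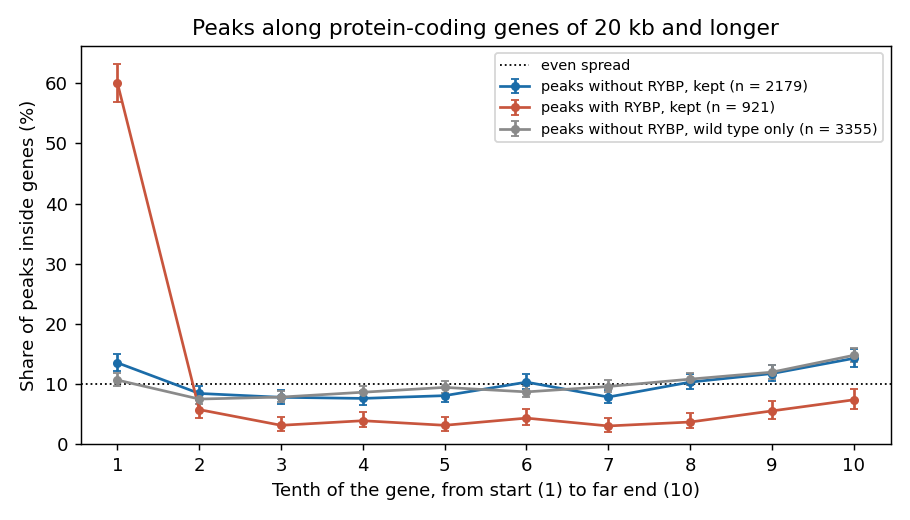
Share of peaks inside protein-coding genes of 20 kb and longer (vertical axis, %) by steps of 10% of the gene's length from start to far end (horizontal axis), with 95% Wilson intervals. Kept peaks with RYBP stand at 60.0% in the first 10%, while both RYBP-free sets stay between 7.51% and 14.8% in every step.

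Prdm16, Rbfox3 and Sdk2 held the most of these peaks. Prdm16 (chr4:154316122-154637360), a transcription factor gene of brown fat and neural progenitors, held 45 RYBP-free kept peaks with 101853 bp over its 321 kb, beside 30 RYBP-free peaks of the wild type alone and 4 RYBP peaks. Counting every H2AK119ub peak, Prdm16 had 84 in each genotype. Rbfox3 (chr11:118489760-118911597), which encodes the neuronal splicing factor NeuN, held 42 in 422 kb, with 92 wild-type and 78 knockout peaks in all. Sdk2 (chr11:113776374-114067029), a synaptic adhesion gene of the retina, held 26, with 52 and 46 peaks in all.

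Cacna1g (chr11:94408391-94474400), which encodes a T-type calcium channel, was the shortest of the 8 at 66.0 kb and held 22, with 26 wild-type and 21 knockout peaks in all. A median of 83.9% of each of its RYBP-free kept peaks was covered in the knockout, the highest of the 8, where Rbfox3 had the lowest at 49.3%. Igsf21, a synaptic adhesion gene, held 22, Cdh23, the cadherin of hair cell tip links, 21, Cdh22, a brain cadherin, 20, and Megf6, a gene for a protein with EGF repeats, 20. RYBP was not absent from these genes: each held 1 to 5 RYBP peaks. In all, 1735 protein-coding genes held at least 1 RYBP-free kept peak, 961 of them 1, 358 of them 2 and 416 of them 3 or more. The median length of these genes was 27.2 kb against 17.4 kb for all, and longer genes have more room for a peak.

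The peaks came in runs. Joined across gaps of at most 10 kb, the 6132 peaks formed 3113 runs, of which 1844 were single peaks, 622 held 2 and 647 held 3 or more, and 49.6% of the peaks were in runs of 3 or more. Runs were not counted for the other sets of peaks, so they are not shown to be particular to this one. The longest run, 135 kb (chr12:108329940-108464734) over Cyp46a1, the cholesterol hydroxylase of neurons, and Eml1, a microtubule protein gene, held 23 RYBP-free kept peaks. It had 31 wild-type and 41 knockout H2AK119ub peaks in all, and 3 RYBP peaks. A run of 83.4 kb on chromosome 2 (chr2:167699219-167782621) held 15 and no named protein-coding gene. A run of 75.5 kb over Nfatc1 (chr18:80602351-80677870), a calcium-regulated transcription factor gene, held 18, with 27 wild-type, 21 knockout and 0 RYBP peaks. The next, 69.0 kb at Cdh22 (chr2:165095576-165164600), held 14. Such neighbours share their locus, so the peaks are not independent of one another and the intervals over peaks are too narrow. With peaks joined across 2 kb before the rule is applied, 2354 peaks remained in place of 6132.

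RYBP-free kept peaks lay nearer to RYBP than those not kept. The median distance to the nearest RYBP peak was 18.2 kb (17.2 to 19.3 kb, quartiles 5.50 and 49.1 kb) for kept peaks and 25.8 kb (25.02 to 26.7 kb) for RYBP-free peaks of the wild type alone. Of the kept peaks, 741 were within 2 kb of RYBP, 12.1% (11.3% to 12.9%), against 7.78% (7.26% to 8.33%), and 999 were within 10 kb of a broad H2AK119ub domain of 5000 bp or more, 16.3% (15.4% to 17.2%), against 8.31% (7.77% to 8.88%). Read the other way, 49.7% (47.1% to 52.2%) of RYBP-free peaks within 2 kb of RYBP were kept, 43.8% from 2 to 10 kb, 37.9% from 10 to 50 kb and 32.9% (31.6% to 34.3%) beyond 50 kb. The median width of the kept peaks in these 4 classes of distance was 1527, 1594, 1569.5 and 1441 bp, and its part in the trend was not tested. The rule used both RYBP and knockout peaks, so these distances and shares are descriptions and no test.

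Wide peaks were kept more often, which the rule fixes in part because a wider peak meets a knockout peak more easily. Over all widths below 5000 bp, 38.8% of 15785 RYBP-free peaks and 72.0% (70.6% to 73.4%) of 3982 peaks with RYBP were kept. The median RYBP-free kept peak was 1540.5 bp wide, with quartiles at 1124 and 2247 bp and a range of 472 to 4989 bp. RYBP-free peaks of the wild type alone had a median of 1081 bp, and kept peaks with RYBP one of 2064 bp. From the narrowest to the widest class of width, the kept share rose from 22.4% to 36.7%, 53.7% and 79.4% without RYBP and from 39.9% to 57.8%, 79.3% and 92.3% with it. In each of the 4 classes the share was thus lower without RYBP. These shares describe the rule and are no test of it.

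In the knockout, the counterparts were narrower. A knockout peak and a wild-type peak that met each other and no other peak made up 4248 pairs, and their median width was 1466.5 bp for the wild-type and 1031 bp for the knockout members. The ratio of knockout to wild-type width had a median of 0.727 (0.714 to 0.741) and quartiles of 0.523 and 0.964. The knockout peak was narrower in 3328 pairs, 78.3%, wider in 916 and equal in 4. The pairs spread widely around the median, with 953 at or below 0.5 and 55 at or above 2. For kept peaks with RYBP the median ratio was 0.815 (0.803 to 0.833, n = 1983), and the knockout peak was narrower in 74.9% of those pairs. The whole knockout list had a median width of 1083 bp, below the 1360 bp of the whole wild-type list. Narrower knockout peaks were thus not particular to RYBP-free kept peaks. The ratio falls with the wild-type width, from 0.970 in the narrowest class to 0.768, 0.611 and 0.481 in the widest without RYBP, and from 0.990 to 0.869, 0.778 and 0.737 with it. The wild-type width is also the divisor of the ratio, so part of this slope comes by construction.

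Knockout peaks covered a median of 63.7% of a RYBP-free kept peak (62.8% to 64.7%, quartiles 43.1% and 84.2%) and 78.8% (77.7% to 79.9%) of a kept peak with RYBP. Of the RYBP-free kept peaks, 458 were covered in full, 4093 by at least 50% and 195 by less than 10%. Of these wild-type peaks, 5164 met 1 knockout peak, 874 met 2, 91 met 3, and the other 3 met 4. In 1702 of the 4248 pairs the knockout peak lay within the bounds of the wild-type peak, 40.1%, in 281 it spanned it and in 2265 it was shifted, with a median distance between centres of 282 bp. The median ratio was 0.741 at gene ends, 0.730 inside genes and 0.710 between genes.

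**Figure D4:**
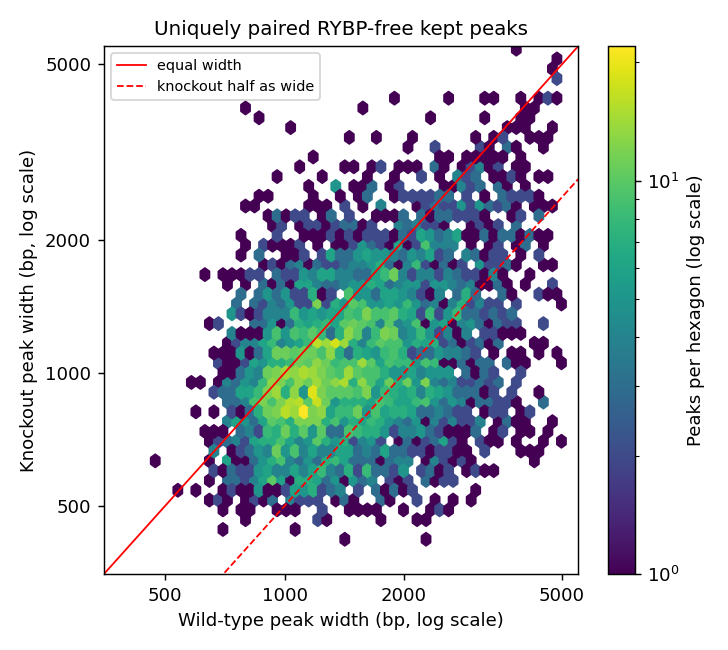
Width of the knockout peak (vertical axis, bp, log scale) against width of the wild-type peak (horizontal axis, bp, log scale) for the 4248 uniquely paired RYBP-free kept peaks, as hexagons coloured by number of peaks. Most lie below the solid line of equal width, and 953 lie on or below the dashed line at a ratio of 0.5.

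The pairs at both extremes show the range. At Nt5e, which encodes the ectonucleotidase CD73, a wild-type peak of 795 bp (chr9:88327970-88328764) met a knockout peak of 3970 bp, a ratio of 4.99. At Mov10l1, a helicase gene of the piRNA pathway in germ cells, the widths were 868 and 3762 bp (ratio 4.33), at Mchr1, a receptor gene for melanin-concentrating hormone, 1026 and 3542 bp (3.45), and 47.5 kb from Skap1, a T cell adaptor gene, 831 and 2443 bp (2.94). At the other end, a peak of 4983 bp at Abcc10 and Dlk2 (chr17:46301250-46306232) met a knockout peak of 690 bp (0.138). Peaks of 4219 bp, at 94.7 kb from Macroh2a1, of 4569 bp inside Prr12 and of 4159 bp inside Fam222a met knockout peaks of 639, 698 and 655 bp. These pairs were taken for their ratio and are a description.

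Among peaks at gene ends, the Abcc10 and Dlk2 peak above was the widest at 4983 bp. Next came a peak of 4957 bp at Slc6a9, a glycine transporter gene (chr4:117865305-117870261, 61.8% covered in the knockout), of 4932 bp at Spata20 (88.5%), of 4905 bp at Lypd3, a gene for a surface protein of epithelia (57.8%), and of 4808 bp at Arhgef16, a guanine nucleotide exchange factor gene (98.2%). A peak of 4780 bp at Arsi, a sulfatase gene, was covered by 81.6%. A peak of 4779 bp at Ins2, an insulin gene (chr7:142678630-142683408), was covered by 30.5%, or 1456 bp. Foxs1, a forkhead factor gene, had 4760 bp (47.4%) and Vsig8 4727 bp (39.1%). The nearest RYBP peak to those named was between 1894 bp away at Abcc10 and 101094 bp away at Lypd3. Between genes the widest were 4964 bp at 63.5 kb from Sdk2, 4960 bp at 4.12 kb from Smug1, a DNA repair gene, 4953 bp at 9.98 kb from Hes5, a Notch target gene, and 4922 bp at 2.49 kb from Adgrb2, whose nearest RYBP peak was 21 bp away.

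The bounds of the rule left like peaks on either side. The widest members were 4989 bp, inside Izumo1r, and 4983 bp, at Abcc10, and a peak of 5014 bp, at Ttll11, was among the narrowest left out for width alone. In all, 238 RYBP-free kept peaks of 5000 bp or more were left out. The RYBP-free kept peak nearest to RYBP was 4 bp away at Dusp2, and the smallest RYBP overlaps that put a kept peak outside the rule were 1 bp inside Phf19 and 3 bp at Ccdc183. Overlaps of 1 bp with a knockout peak were enough for a peak of 3215 bp, 208 kb from Sdk2, and for a peak of 904 bp, 27.0 kb from Dagla.

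Gene families differed in how often a RYBP-free kept peak lay within 2 kb of either end. Of all 18493 protein-coding genes on these chromosomes 1330 had one, 7.19%, or 874 with peaks narrower than 2 kb alone. Of these 1330 genes, 653 also had a RYBP peak at an end, 49.1% (46.4% to 51.8%), against 34.8% of all genes, and 677 had none, 3.66% of all genes. Counting peaks centred anywhere in the gene as well, 2063 genes had one, 11.2%. The share with a kept peak with RYBP at an end was 10.1%. Base pairs given below for a gene are those within 2 kb of its ends. The first value counts RYBP-free kept peaks alone, while the knockout value counts every knockout H2AK119ub peak there. Such pairs of values are therefore no comparison of the genotypes.

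Keratin genes, which encode the intermediate filaments of epithelia, had the highest share of the 26 lists examined. Of 49 members, 21 had a RYBP-free kept peak at an end, 42.9% (30.0% to 56.7%), and 1 had a kept peak with RYBP. RYBP-free peaks of the wild type alone were also frequent there, at 18 of the 49 genes, 36.7%, against 9.92% of all genes, so the high share was not particular to the kept peaks. Krt19 was covered by 4478 bp of such peaks, with 4130 bp of H2AK119ub in the knockout and 0 bp of RYBP. Krt42 had 3766 bp, with 3016 bp in the knockout, and Krt7 had 3118 bp, with 4219 bp in the knockout, both with 0 bp of RYBP. Krt8 and Krt18, the keratins of simple epithelia, were the members among the 21 with RYBP at an end, with 1619 and 1332 bp.

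The keratin share rested on the keratin genes of chromosome 15, most of them in the type II cluster. Of these, 16 of 24 had such a peak, 66.7% (46.7% to 82.0%), against 5 of 25 on chromosome 11, 20.0% (8.86% to 39.1%). All protein-coding genes had one in 16.4% on chromosome 15 and 12.4% on chromosome 11, and without chromosome 15 the share over all genes was 6.79%. Chromosome 15 also kept most of its RYBP-free peaks, 51.6% (48.6% to 54.7%) of 1017, and had the highest median width ratio, 0.888, where the other 16 chromosomes kept 27.9% to 46.4% with ratios of 0.682 to 0.777. Its part in the keratin count was not tested beyond the values given. The 21 genes were reached by 29 distinct peaks. Neighbouring keratin genes share their locus, so they are not independent. Reads of near-identical copies in such clusters, protocadherins included, may be misplaced, which was not tested.

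Voltage-gated calcium and sodium channel genes had the next highest share. They had a RYBP-free kept peak at an end in 12 of 36 members, 33.3% (20.2% to 49.7%), and 16 had a kept peak with RYBP. Cacna1h, a T-type calcium channel gene, had 5124 bp, with 5662 bp in the knockout and 848 bp of RYBP. Cacna1e had 2823 bp, with 2326 bp in the knockout and no RYBP. Potassium channel genes had one in 18 of 83 members, 21.7% (14.2% to 31.7%), among them Kcnk15 (3757 bp), Kcnt1 (3718 bp) and Kcnj4 (3580 bp). A kept peak with RYBP lay at an end of 32 of the 83, 38.6%, against 10.1% of all genes.

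Cadherin and protocadherin genes had a RYBP-free kept peak at an end in 20 of 82, 24.4% (16.4% to 34.7%), reached by 19 distinct peaks. RYBP-free peaks of the wild type alone lay at the ends of 22 of the 82, 26.8%. In all, 42 of the 82 had one when peaks centred in the gene were counted, 51.2% (40.6% to 61.7%). The 3 most covered were clustered protocadherins of chromosome 18, Pcdhb17 (1963 bp), Pcdhb19 (1935 bp) and Pcdhgc4 (1928 bp), all with 0 bp of RYBP. The median length of the list was 96.2 kb, which bears on the second count. Collagen genes had one in 7 of 38, 18.4% (9.22% to 33.4%), with Col16a1 (3798 bp), Col8a2 (3283 bp) and Col7a1 (1544 bp). Axon guidance genes had one in 11 of 57, 19.3% (11.1% to 31.3%), with Unc5a, a netrin receptor gene, at 5421 bp and 0 bp of RYBP. A kept peak with RYBP lay at an end of 15 of the 82 cadherin and protocadherin genes. The same held for 10 of the 38 collagen genes and 20 of the 57 axon guidance genes.

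Developmental regulators had both kinds of peak. Genes for forkhead, Sox and T-box factors had a RYBP-free kept peak in 17 of 63 members, 27.0% (17.6% to 39.0%), and a kept peak with RYBP in 29. Paired box, LIM, NK and related homeobox genes had 14 and 25 of 51, basic helix-loop-helix factors 14 and 24 of 50, and genes of Wnt ligands, receptors and antagonists 11 and 19 of 39. Among them Tbx4, a hindlimb regulator, had 5257 bp of RYBP-free kept peaks, with 5424 bp in the knockout and 635 bp of RYBP at its ends. Foxs1 had 4502 bp and 2240 bp in the knockout, Lhx2, a forebrain regulator, 3827 and 4302 bp, Neurod1, a neuronal and endocrine factor, 4105 and 2170 bp, and Scx, the tendon factor, 4040 and 2047 bp, all with 0 bp of RYBP. Wnt9b had 2983 bp, with 5865 bp of all H2AK119ub peaks in the knockout and 1970 bp of RYBP. Hox genes had 6 of 28, reached by 4 distinct peaks, and 10 had a kept peak with RYBP.

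Other lists spread from 17.8% down to the background. TGF-beta and BMP family genes had 8 of 48, 16.7% (8.70% to 29.6%, above the background of 7.19%), with Acvrl1, a BMP receptor gene of endothelium, at 5459 bp, with 5264 bp in the knockout and 0 bp of RYBP. FGF ligand and receptor genes with their feedback regulators had 8 of 45, 17.8% (9.29% to 31.3%), also above it. Kept peaks with RYBP lay at the ends of 15 of these 48 and 16 of these 45 genes. Those shares, 31.25% and 35.6%, were also above the 10.1% of all genes. The intervals of neurotransmitter receptors (10 of 90, 11.1%), ADAM proteases (4 of 42), imprinted genes (3 of 27), germline genes (3 of 28) and fibroblast and feeder genes (3 of 23) include the background of 7.19%. Solute carrier genes had 30 of 298, 10.1% (7.14% to 14.0%), an interval that also includes the background, with Slc16a8, a lactate transporter gene of the retinal pigment epithelium, at 5344 bp, with 4906 bp in the knockout and 0 bp of RYBP.

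Ribosomal protein genes had 2 of 154, 1.30% (0.36% to 4.61%), C2H2 zinc finger genes named Zfp 6 of 344, 1.74% (0.802% to 3.75%), and both intervals lie below the background of 7.19%. Kept peaks with RYBP were also less frequent there, at 1.30% and 4.94%, against 10.1% of all genes. RYBP-free peaks of the wild type alone lay at 1.95% and 6.40%, against 9.92%. The low shares were thus not particular to RYBP-free kept peaks. Olfactory receptor genes had a RYBP-free kept peak in 0 of 1067. The limit that 3 counts would give is 0.281% and the Wilson upper bound is 0.359%, although 6 of them had a RYBP-free peak of the wild type alone. Polycomb subunit genes had 1 of 32 (0.554% to 15.7%), pluripotency genes 1 of 25 (0.710% to 19.5%, Dnmt3l with 2624 bp and 1265 bp in the knockout) and housekeeping genes 0 of 30 (Wilson upper bound 11.4%), and these 3 intervals include the background. Of the stem cell markers on these chromosomes, Pou5f1, Sox2, Klf4 and Tfcp2l1 had no RYBP-free kept peak in or at the gene and no knockout H2AK119ub at their ends, with RYBP at Klf4 (1602 bp). Esrrb held 2 RYBP-free kept peaks inside the gene and 11 of the wild type alone. Of the feeder markers, Thy1 had 2721 bp of RYBP-free kept peaks at its ends, Pdgfrb 1839 bp and Col1a1 601 bp. Col3a1, Dcn and Vim had none in or at the gene. Twist2 had none at its ends and 2 inside the gene. RYBP lay at the ends of Twist2 (3210 bp), Vim (2247 bp) and Col1a1 (1400 bp). Since peaks carry no expression level, neither the cell type nor the loss of Ddx5 could be checked here, and the part of feeder chromatin was not tested.

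**Figure D5:**
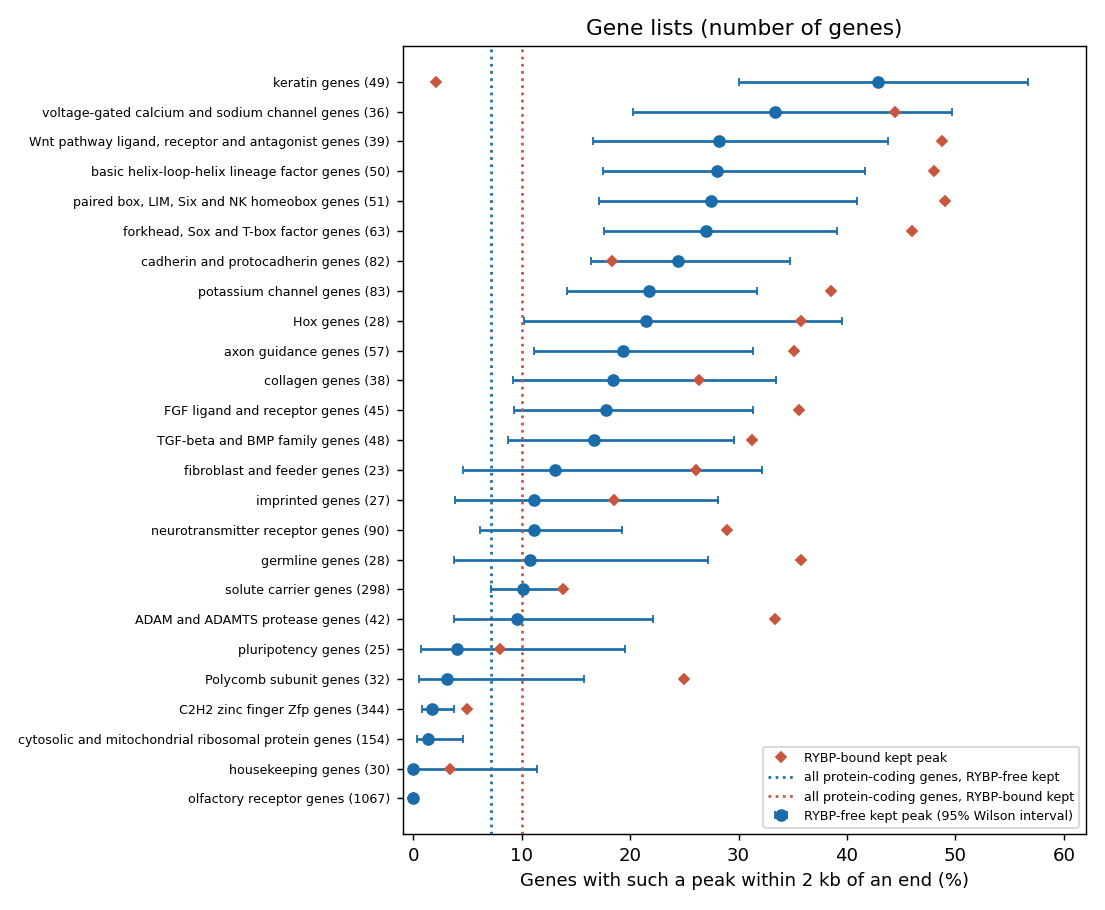
Share of genes (horizontal axis, %) with a RYBP-free kept peak within 2 kb of an end, with 95% Wilson intervals, and with a kept peak with RYBP (diamonds), for the gene lists reported here (vertical axis, with the number of genes). Dotted lines mark all protein-coding genes, 7.19% and 10.1%, and keratin genes stand at 42.9% for RYBP-free and 2.04% for RYBP-bound peaks.

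By chromosome the peaks were uneven. Chromosome 11 had the most per length, 6.48 per Mb, followed by chromosome 4 with 5.47 and chromosome 15 with 5.05, and chromosomes 3 and 16 had the fewest with 0.64 and 0.81. For comparison, protein-coding genes per Mb were 13.2 on chromosome 11, 8.49 on chromosome 4 and 7.47 on chromosome 15. They were 6.15 on chromosome 3 and 6.93 on chromosome 16. Chromosome 7 had the most genes per Mb, 14.0, and 3.19 such peaks per Mb. The relation of peak density to gene density was not tested. Median widths ranged from 1330 bp on chromosome 16 to 1631.5 bp on chromosome 10.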

How the data were processed

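ChIP-seq of 5 samples was used as deposited peak lists, 1 for each of 3 libraries; the 2 inputs were not analysed here. Bowtie2 2.2.5, MACS 1.4 and build mm10 are named per the submitters' processing notes, without their roles; a peak threshold and the use of inputs are not stated there. The deposited score column holds 0 for every peak and was not used, so no height or p-value per peak is given and depth is unknown.

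Peaks were intersected with Python 3.11.15, pandas 2.3.3 and numpy 2.4.6 (minimum overlap 1 bp). Intervals are Wilson 95% intervals from SciPy 1.17.1, Newcombe intervals for differences and order-statistic intervals for medians. Genes (41795 in all, 18493 protein-coding) and promoter windows (22999 genes matched, 14779 of them protein-coding) came from RefSeq GRCm38.p6, the assembly behind mm10. Strand was taken from the promoter table. Code for overlaps, covered base pairs and gaps was tested on simulated intervals against bedtools. Code for position classes was tested on planted peaks around 1 gene. The rule for named peaks took the widest, the extreme ratios, the longest runs, the genes with most peaks and up to 3 genes per list, without predicted genes; other printed genes, the miRNAs and the keratin split by chromosome were chosen after values were seen. The members and lists were chosen with earlier results of these data known. Some genes under these rules and 1 gene list are not reported here.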

Additional observations from a re-analysis of the deposited data

How the results depend on the processing

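Of 54 recomputed values, 30 were classed as unchanged, 24 as moved and 0 as reversed. The bound for counts was wide. Among the 30 were 4093 peaks in place of 6132, with knockout peaks over at least 50% of the peak. So were 1953 marked genes in place of 1330, with gene windows of 5 kb. Counts and shares have no sign to reverse, and with 5 kb windows gene ends did become the largest class. Alternatives for CpG content were chosen after seeing the data. With knockout peaks over at least 50% of the peak, the median width ratio was 0.850 and the covered share 77.3%, as that setting selects well-covered peaks, and promoter CpG was 0.392. Without RYBP within 2 kb, 25.3% were at gene ends. For peaks narrower than 2 kb, 22.0% lay between genes, the ratio was 0.809, the covered share 67.2% and marked genes 874; for those of at least 1 kb the ratio was 0.671 and the covered share 61.5%. On all chromosomes 25.7% were at gene ends, with 0.750 and 66.3%. With gene windows of 1 kb the shares at ends, inside and between were 14.0%, 62.3% and 23.7%, with 5 kb 48.7%, 35.9% and 15.3%, and with protein-coding genes alone 17.3% were at ends and 31.3% between genes. Merging peaks within 2 kb gave 2354 peaks, a ratio of 0.746 and a covered share of 58.4%. The cause was not tested where none is named. No paired analysis was possible because each group has 1 library. Unknown depth limits every comparison between the lists.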

Other observations

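RYBP-free kept peaks also lay over microRNA genes. Of 840 hairpins in the RefSeq table on these chromosomes, 25 overlapped such a peak, 2.98%, against 22 under kept peaks with RYBP, 2.62%, and 23 under RYBP-free peaks of the wild type alone, 2.74%. No difference between these shares was tested. Of the 25, 3 chosen after values had been seen are microRNAs of neurons, heart and many tissues, and are printed 5′ to 3′ with the seed, bases 2 to 8, in capitals.
miR-9-5p: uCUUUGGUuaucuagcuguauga
miR-208a-3p: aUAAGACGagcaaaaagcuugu
miR-26a-5p: uUCAAGUAauccaggauaggcu

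They have different seeds. The peak over Mir9-1 (chr3:88214432-88217498) was 3067 bp wide and 94.8% covered in the knockout, with the nearest RYBP peak 12599 bp away. That over Mir208a (chr14:54948726-54950323) was 1598 bp wide and 98.1% covered. That over Mir26a-1 (chr9:119030799-119034862) was 4064 bp wide and met 2 knockout peaks, which covered 29.7% of it.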
